A study of Rattus norvegicus with 4 samples.

Results

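The comparison described is the net difference between the last and the control array of a time course of cultured rat oral epithelial cells, day 9 against day 0. It uses 2 of the 4 arrays of the series, and the arrays of days 3 and 6 are quoted beside it. The cells, ROE2, are an immortalized line taken from tongue epithelium of a Wistar rat fetus of 18 days. The rat was transgenic for SV40 large T antigen in a temperature-sensitive form, which drives division at the permissive temperature. All 4 groups carry this transgene. They were grown on type I collagen at 33 °C for 24 h in DMEM/F12 medium with 2% fetal bovine serum, insulin, transferrin, ethanolamine, selenite and 10 ng/ml EGF, and then kept at 37 °C for 0 days (the control), 3, 6 or 9 days. ROE2 is 1 line. There was 1 array per day, so no difference below has a replicate check or a p-value, and a difference between days cannot be told apart from one between arrays. RNA was measured in bulk, so fewer cells of a type and less RNA per cell cannot be told apart either.

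A stratified epithelium renews itself from a basal layer whose cells divide on a laminin-rich basement membrane. Cells that leave it stop dividing, switch their keratin pair, reinforce desmosomes, make barrier lipids and assemble a cross-linked envelope under the membrane, and in the lining of the mouth the suprabasal pair includes keratin 13. Epithelial cells in culture can also make chemokines, colony stimulating factors and matrix proteins, much as they do at a wound.

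Values are log2 probe set values made with RMA, so a difference of 1 is 2-fold. Each gene was represented by the brightest of its probe sets on average over the 4 arrays. Of 14218 genes, 8802 reached 6 on any of these arrays and were kept. A gene was called higher or lower when the 2 arrays differed by 1 or more. Of 27 probe sets for bacterial control RNA, the brightest served as the control level of an array (4.19 on day 0 and 4.56 on day 9). Where a gene lay at or below it, the fold was set against the control and is written as "at least". Those controls differed between the arrays by -0.16 to 0.36. The median gene differed by -0.14, while the 18 hybridisation spike-in probe sets, by design added in equal amount to every array, were higher on day 9 by a median of 0.63 (0.25 to 0.84). Centring on the spike-ins would place the median gene at -0.77 and give the opposite sign to the 2473 genes with differences between 0 and 0.63. The medians of gene lists are therefore given relative to the median gene, which a flat shift leaves as it is, and each list's counts are followed by those with spike-in centring. The 3' minus 5' difference of the array's β-actin control was 2.25, 2.44, 1.22 and 2.35 on days 0, 3, 6 and 9, so it lay closer on days 0 and 9 to each other than to day 6.

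The cells carried the markers of a stratified epithelium on both days. Of 18 measured markers of that tissue, all were above the bacterial controls on both arrays, 3 were higher on day 9 and 0 lower. The higher ones were Krt13 (9.68 on day 0 and 13.91 on day 9), Krt15 (9.11 and 11.78) and Jup (11.81 and 12.94). Krt5 and Krt14, the basal keratin pair, read 13.44 and 14.11 on day 0 and 13.16 and 14.15 on day 9, near the top of the scale. Tp63, the gene of the basal cell regulator p63, read 9.72 on day 0 and 10.13 on day 9, with 1.07 in its other probe set, and Cdh1, the E-cadherin gene, read 11.54 on day 0 and 11.73 on day 9. The small differences of Krt14, Tp63 and Cdh1 take the opposite sign with spike-in centring (-0.59, -0.22 and -0.45). Mki67, a marker of dividing cells, read 9.61 on day 0 and 9.53 on day 9. Of the markers of other cell types, none of the 10 fibroblast genes reached 6, and Col1a1, Col1a2, Col3a1, Dcn and Lum were at or below the control level on both arrays. The same held for the endothelial gene Pecam1 and the leukocyte genes Ptprc, Cd3e and Csf1r. Other members of these lists lay above the control level. On days 0 and 9 these were 2 and 1 of 10 fibroblast, 1 and 1 of 8 endothelial and 4 and 3 of 9 leukocyte genes. Of 9 muscle genes 3 lay above it on each array. Cd68 of the leukocyte list read 5.32 on day 0 and 6.18 on day 9, and Myh11 of the muscle list 6.18 and 7.05. The summed level of the fibroblast list was 6.89 on both arrays on the log2 scale, and that of the leukocyte list was 10.78 on day 0 and 9.27 on day 9, in which Cd14 (10.66 on day 0 and 8.80 on day 9) was the brightest gene. Outside the stratified epithelium list, the other called markers were Krt20 of the Merkel cell list (6.64 on day 0 and 8.92 on day 9) and Tubb3 of the neural list (7.29 on day 0 and 8.50 on day 9). Of the companions of Krt20, Chga, Chgb and Isl1 were below the control level on both arrays. Syp was above it, at 5.92 on day 0 and 6.00 on day 9.

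Between days 0 and 9, 490 genes were higher, which is 5.57% of the genes kept, and 550 were lower, which is 6.25%. At 4-fold or more there were 104 higher and 44 lower genes, at 8-fold 21 and 8, and at 16-fold 5 and 3, counted as measured and not as bounds. The higher side thus held more of the large differences on the deposited scale. With spike-in centring the lower side did, with 42 higher and 212 lower at 4-fold, 8 and 24 at 8-fold, and 2 and 6 at 16-fold. The lower genes made up 52.9% of those that differed, 37.7% with arrays centred on the median gene, and 94.4% with the spike-in centring, under which 174 genes (1.98% of those kept) were higher and 2911 (33.1%) lower. The direction that held more genes thus depended on the scaling. The interquartile range of the differences was 0.75 for genes with a mean of the 2 arrays from 6 to 8 and 0.40 from 12 up. It was 1.17 for the 408 genes with a mean under 6, which were kept only because at least 1 of the 4 arrays was higher, so that the floor itself widens this class. Of the genes higher on day 9, 303 had their highest of the 4 values on day 9, 154 on day 6 and 33 on day 3. Of the lower genes 295 had their lowest value on day 9 and 241 on day 6. Among 286 other probe sets of the called genes, 270 differed in the same direction and 139 by 2-fold or more.

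**Figure D1:**
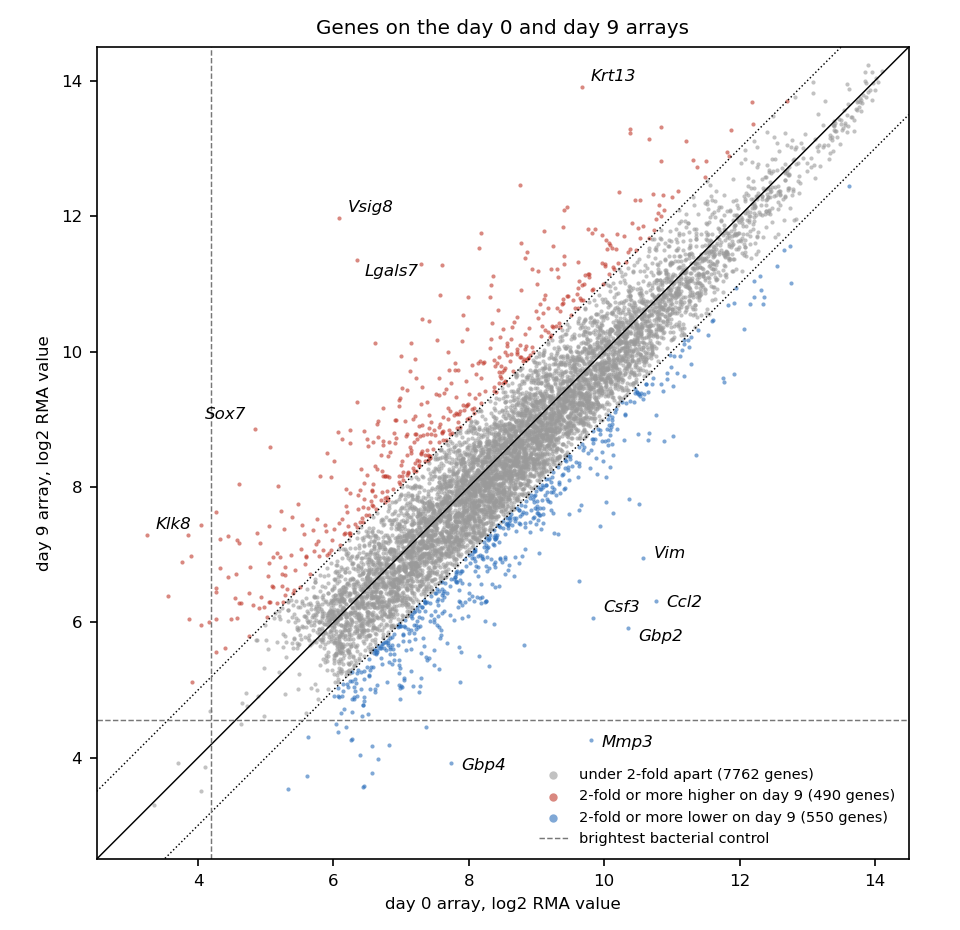
Each point is 1 of 8802 genes, with its log2 value on the day 0 array on the x axis and on the day 9 array on the y axis. The solid line marks equal values, the dotted lines a 2-fold difference and the dashed lines the brightest bacterial control; Mmp3 and Gbp4 lie under that level on day 9 and Klk8 on day 0.

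The 5 genes with the largest higher differences that were measured on both arrays were Vsig8, Lgals7, Krt13, Sox7 and C20h6orf15. Vsig8, which encodes an immunoglobulin-domain membrane protein, read 6.08, 9.79, 11.73 and 11.98 on days 0, 3, 6 and 9, a 59.4-fold difference between the ends. Lgals7, the gene of galectin-7, a lectin of stratified epithelia, read 6.34, 10.39, 11.53 and 11.36, 32.4-fold higher on day 9. Both had covered most of the distance between the end points by day 3. Krt13, the suprabasal type I keratin of oral lining mucosa, read 9.68, 12.23, 13.55 and 13.91 and was 18.9-fold higher. Sox7, which encodes a SOX family transcription factor, read 4.84, 7.49, 8.46 and 8.85, 16.2-fold higher. These 4 genes had their largest step before day 3, and all but Lgals7 had their highest value on day 9. The secretory leukocyte protease inhibitor gene Slpi read 8.75, 12.09, 11.97 and 12.46, 13.05-fold higher. Selenop, which encodes the selenium carrier of plasma, read 8.17, 11.85, 12.28 and 11.75, 11.96-fold higher in this probe set, and 2.28 higher on the log2 scale as the mean of its probe sets. C20h6orf15 read 7.30 on day 0 and 11.29 on day 9, 15.9-fold higher. Krt23, a type I keratin gene, read 7.60, 11.06, 11.62 and 11.28, 12.8-fold higher, and Krt78, a type II keratin gene, 5.06, 7.86, 9.23 and 8.59, 11.5-fold higher. Both keratin genes and Selenop had their highest values on day 6.

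Several of the 20 largest higher genes were enzymes. Aldh1a1, which makes retinoic acid from retinal, read 6.61, 7.58, 8.82 and 10.12, 11.4-fold higher, and was still climbing between days 6 and 9. Cyp2s1, a cytochrome P450 that oxidises retinoids, read 4.60, 6.90, 7.70 and 8.05, 10.9-fold higher. Aldh3a1, the aldehyde dehydrogenase abundant in cornea, read 8.14, 9.47, 11.22 and 11.53, 10.5-fold higher. Pla2g4e, a cytosolic phospholipase A2 that makes N-acylated membrane lipids, read 7.41, 9.11, 9.76 and 10.46, 8.27-fold higher. In all 4 the values increased over the 4 arrays without a reversal. The remaining genes of this group were more mixed in kind. Cebpa, the gene of a transcription factor of postmitotic keratinocytes, read 7.14, 8.67, 9.85 and 10.13, 7.94-fold higher, and its 3 other probe sets were higher by 2.59 to 2.98. Anxa9, an annexin gene, read 7.31 on day 0 and 10.49 on day 9, 9.02-fold higher, with 1.12 on the log2 scale in its other probe set. Plekhh1 read 4.27 on day 0 and 7.63 on day 9, 10.3-fold higher, and Mab21l4 read 7.57 on day 0 and 10.84 on day 9, 9.62-fold higher.

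On the lower side the largest differences included those of Mmp3, Ccl2, Gbp2, Csf3 and Vim. Mmp3, the gene of the matrix protease stromelysin-1, read 9.80, 3.12, 2.91 and 4.25 on days 0, 3, 6 and 9, at least 37.98-fold lower on day 9. Ccl2, which encodes a chemokine for monocytes, read 10.76, 5.001, 3.96 and 6.32, 21.7-fold lower on day 9, with a lower value still on day 6. Gbp2, an interferon-inducible GTPase gene, read 10.35, 7.64, 6.08 and 5.91, 21.7-fold lower. Csf3, the granulocyte colony stimulating factor gene, read 9.84, 8.37, 6.30 and 6.06, 13.7-fold lower, and Vim, the vimentin gene, read 10.58, 8.53, 6.51 and 6.95, 12.4-fold lower. Mmp3 and Ccl2 had dropped by day 3, whereas Gbp2, Csf3 and Vim stepped down through day 6. Other genes of this group were Lnc215, a non-coding RNA (8.81 on day 0 and 5.67 on day 9), and Abcg1, a cholesterol exporter (9.63 on day 0 and 6.61 on day 9), which were 8.82-fold and 8.12-fold lower. With the mean over their probe sets their log2 differences were -1.96 and -1.59.

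The rest of the 20 largest lower genes include cell surface, small GTPase and signalling genes. Emp3, a membrane protein gene, read 11.35 on day 0 and 8.47 on day 9, 7.37-fold lower. Pdpn, the gene of podoplanin, a glycoprotein of basal and migrating keratinocytes, read 10.37, 10.15, 9.36 and 7.82, 5.86-fold lower, with its largest step between days 6 and 9. Arg1, which encodes arginase 1, read 8.15 on day 0 and 5.50 on day 9, 6.30-fold lower. Cdc42ep5, an effector of the GTPase Cdc42, read 10.13 on day 0 and 7.62 on day 9, 5.70-fold lower, and Rab32, a GTPase of organelle traffic, read 8.38 on day 0 and 5.98 on day 9, 5.29-fold lower. Emp3, Arg1, Cdc42ep5 and Rab32 had their lowest value on day 6, and Pdpn on day 9. Ncald, a neuronal calcium sensor gene, read 7.88 on day 0 and 5.57 on day 9, 4.99-fold lower, but only -1.18 on the log2 scale with the mean over its probe sets. Dact2, an inhibitor of Wnt and TGF-beta signalling, read 7.26 on day 0 and 4.96 on day 9, 4.91-fold lower. Lix1l was 6.70-fold lower and its 2 other probe sets differed by -1.80 and -1.72, and Nipsnap3b was 5.70-fold lower.

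**Figure D2:**
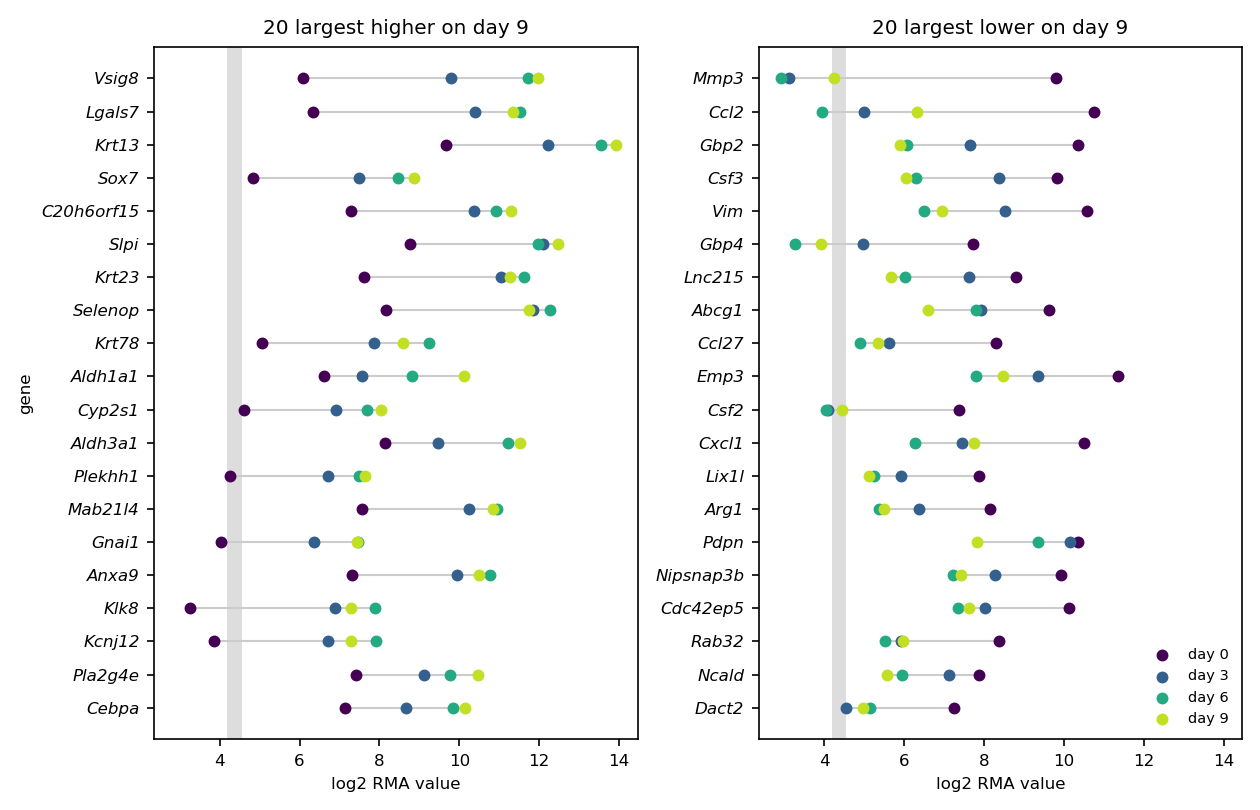
The log2 values of the 20 genes with the largest higher (left) and lower (right) differences, with 1 point per array coloured by day and a grey line over the range of the 4 arrays. The grey band spans the brightest bacterial control on day 0 (4.19) to that on day 9 (4.56); day 0 is the lowest array of every gene on the left and the highest of every gene on the right.

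Promoter sequences of RefSeq, 250 bases before to 50 after each start site on build GRCr8, were found for 7424 of the genes kept, for 383 of the higher and for 455 of the lower genes. They were searched on both strands for 13 short motifs. The AP-1 site TGANTCA was in 5.17% of all promoters, 9.66% of those of higher genes and 7.25% of those of lower genes. The TATA box TATAAA was in 6.196%, 10.4% and 8.35% of these groups in the same order, and the TEAD site GGAATG in 11.03%, 14.1% and 10.5%. The shares for the CEBP site TTNNGCAA were 7.77%, 8.88% and 8.57%, for the GRHL site AACNGGTT 1.58%, 2.61% and 1.10%, and for the KLF site CCACACCC 3.66%, 3.92% and 4.83%. For the short NF-kappaB site GGANTTTCC they were 1.32%, 1.57% and 1.76%, for the short interferon response element TTCNNTTTC 6.92%, 4.96% and 6.59%, and for the short antioxidant response element TGACNNNGC, which can overlap an AP-1 site, 14.6%, 13.1% and 13.8%. The sterol response element TCACNCCAC gave 1.09%, 0.261% and 0.879%, the E2F site TTTGGCGC 0.997%, 0.783% and 0.879%, the CHR element TTTGAA of cell cycle genes 11.4%, 10.4% and 10.8%, and the amino acid response element TGATGCAA 0.525%, 0% and 0.659%. These shares are descriptions of letters in a window and were not tested. The largest distances from the share among all promoters, in percentage points, were those of the AP-1 site and the TATA box in higher genes.

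Of the 40 genes with the largest differences, 28 had a promoter in the table, 17 of these held a match of at least 1 of the 13 motifs and 11 held none, among them Csf2, Vsig8 and Pdpn. The 250 bases before the start site are printed for 6 of the 17, chosen after the matches were seen: a protease, a chemokine and the GTPase pair among the lower genes, and a pair of higher genes with the same match. Capitals mark the matches named here, and any others stay in lower case. They are the AP-1 site and TATA box in Mmp3, the short NF-kappaB site in Cxcl1, the AP-1 site and short interferon response element in Gbp2 and Gbp4, and the CEBP site in Krt23 and Mab21l4. Cxcl1, Krt23 and Mab21l4 lie on the minus strand and the others on the plus strand, and each is written 5′ to 3′ on its own strand, from chr8:12925031-12925280, chr14:17479322-17479571, chr2:234005477-234005726, chr2:233978236-233978485, chr10:84946930-84947179 and chr9:101147916-101148165 in this order.
Mmp3: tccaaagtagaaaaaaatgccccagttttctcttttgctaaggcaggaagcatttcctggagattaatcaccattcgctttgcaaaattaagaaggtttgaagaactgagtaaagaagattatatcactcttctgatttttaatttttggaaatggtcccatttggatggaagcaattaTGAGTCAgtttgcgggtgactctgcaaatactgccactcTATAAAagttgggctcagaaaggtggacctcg
Cxcl1: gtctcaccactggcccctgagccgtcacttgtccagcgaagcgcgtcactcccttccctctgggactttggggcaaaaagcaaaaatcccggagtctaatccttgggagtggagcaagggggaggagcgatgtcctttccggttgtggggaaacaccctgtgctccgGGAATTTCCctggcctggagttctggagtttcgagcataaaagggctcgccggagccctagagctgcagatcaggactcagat
Gbp2: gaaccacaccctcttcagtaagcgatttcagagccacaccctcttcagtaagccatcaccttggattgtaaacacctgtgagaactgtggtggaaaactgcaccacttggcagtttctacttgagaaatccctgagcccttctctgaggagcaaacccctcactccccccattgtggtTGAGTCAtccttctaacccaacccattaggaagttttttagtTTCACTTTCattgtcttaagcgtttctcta
Gbp4: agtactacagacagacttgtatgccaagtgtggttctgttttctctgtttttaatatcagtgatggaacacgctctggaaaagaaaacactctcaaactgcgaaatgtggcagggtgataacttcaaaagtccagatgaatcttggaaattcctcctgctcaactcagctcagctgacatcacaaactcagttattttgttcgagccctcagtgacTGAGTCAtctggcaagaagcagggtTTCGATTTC
Krt23: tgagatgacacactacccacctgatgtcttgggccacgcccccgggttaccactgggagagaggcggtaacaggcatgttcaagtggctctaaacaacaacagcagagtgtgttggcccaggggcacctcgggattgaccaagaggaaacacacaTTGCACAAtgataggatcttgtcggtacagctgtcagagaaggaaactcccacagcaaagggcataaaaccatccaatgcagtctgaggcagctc
Mab21l4: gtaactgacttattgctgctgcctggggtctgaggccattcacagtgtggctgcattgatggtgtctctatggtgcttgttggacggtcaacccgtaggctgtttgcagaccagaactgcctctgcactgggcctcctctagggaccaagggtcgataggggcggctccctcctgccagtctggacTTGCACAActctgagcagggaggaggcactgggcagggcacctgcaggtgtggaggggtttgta
Counting back from the base before the start site, the AP-1 match began at -71 in Mmp3, -72 in Gbp2 and -34 in Gbp4, and the interferon element match at -30 in Gbp2 and -9 in Gbp4. The match in Cxcl1 began at -83. The CEBP match had the same letters, TTGCACAA, in Krt23, at -95, and in Mab21l4, at -64.

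Some genes had a value of 6 or more on 1 of the arrays and lay at or below the control level on the other. Of the 8802 genes kept, there were 8 such genes on day 9 and 15 on day 0. These counts do not share a cut-off, since the control level was 4.19 on day 0 and 4.56 on day 9. Among the 15, Mmp3, Csf2, Lgals1, Ptn, Rhobtb3, Cfap20dc and Rps6ka2 had day 9 values between these levels. They would not count as measured on day 0 only if the day 0 level were used for both arrays. On day 9 only were Gnai1, which encodes an inhibitory G protein subunit (4.04, 6.37, 7.47 and 7.43 on the 4 arrays, at least 9.43-fold higher), the kallikrein gene Klk8 (3.25, 6.88, 7.88 and 7.29, at least 8.55-fold), and Kcnj12, an inward rectifier potassium channel gene (3.85, 6.72, 7.92 and 7.28, at least 8.51-fold). The others, named after their values were seen, were Kctd4, Rp1l1, Teddm3, Plet1 and Lgr5, the receptor of R-spondins, at 6.01 to 6.98 on day 9. Kctd4 and Rp1l1 read 6.12 and 5.74 on day 3, while Lgr5 was still at 3.54 on day 3 and Teddm3 reached 6 on day 9 alone. Measured on day 0 only, beside Mmp3 and Gbp4, were Csf2, the granulocyte-macrophage colony stimulating factor gene (7.36, 4.09, 4.04 and 4.44, at least 7.01-fold lower), and Ccl7, another monocyte chemokine gene (at least 3.70-fold lower). Lcp1, the gene of the leukocyte actin bundler L-plastin, read 6.56, 3.73, 3.67 and 3.77, at least 4.02-fold lower. Lgals3bp, which encodes a galectin-3 binding glycoprotein, read 6.83, 5.46, 4.08 and 4.18, at least 4.82-fold lower, and Lgals1, the galectin-1 gene, 6.28, 4.995, 4.36 and 4.27, at least 3.297-fold lower. The growth factor gene Ptn, the fibrillar collagen gene Col5a2, the urea transporter gene Slc14a1, the kinase gene Rps6ka2 and Tnfrsf26, Fbxw17 and Cfap20dc were among the rest, with day 0 values of 6.04 to 6.66.

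The members of 92 gene lists were then counted. In 16 lists members were higher and none lower, in 19 lower and none higher, in 49 both, and in 8 lists none of 313 genes differed by 2-fold. The shares to read them against are the 5.57% higher and 6.25% lower of all genes kept, or 1.98% and 33.1% for the counts with spike-in centring. The lists held 192 of the higher and 178 of the lower genes. Genes beyond the 4 largest of a list were chosen for naming after their values were seen.

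Suprabasal keratins and transcription factors of stratified epithelia were higher on day 9 in most of their members. Of 7 suprabasal keratin genes kept, 6 were higher and 0 lower (spike-in centred, 5 higher and 0 lower), with a median 2.62 above that of all genes. Krt1 and Krt10, the epidermal suprabasal pair, read 4.32 and 7.20 on day 0 and 6.80 and 8.78 on day 9. Krt12, the keratin of corneal epithelium, read 9.24 on day 0 and 11.56 on day 9, 5.02-fold higher. Krt10 was highest on day 3, at 9.40, and declined afterwards, while Krt1 and Krt12 were highest on day 9. The 1 keratin that did not reach 2-fold was Krt79, which read 4.63, 6.11, 4.82 and 4.49 on days 0, 3, 6 and 9. Of 22 transcription factor genes of stratified epithelium, 16 were higher and 0 lower (spike-in centred, 8 higher and 0 lower; median 1.51 relative to all genes). Pitx1, a homeobox factor of oral ectoderm, read 8.32, 9.30, 10.86 and 10.98, 6.29-fold higher. Znf750, which encodes a regulator of terminal differentiation, read 9.39, 11.02, 11.68 and 11.84, 5.50-fold higher. Grhl3 and Grhl1, grainyhead factors of barrier formation, read 9.02 and 9.01 on day 0 and 11.20 and 10.99 on day 9. Prdm1, which encodes the repressor BLIMP1, read 6.99 on day 0 and 9.31 on day 9, and the ETS factor genes Elf5 and Elf3 read 4.87 and 8.05 on day 0 and 7.32 and 9.81 on day 9. Pax9 and Dlx3, homeobox genes of oral and epidermal epithelium, were 2.59-fold and 2.58-fold higher.

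**Figure D3:**
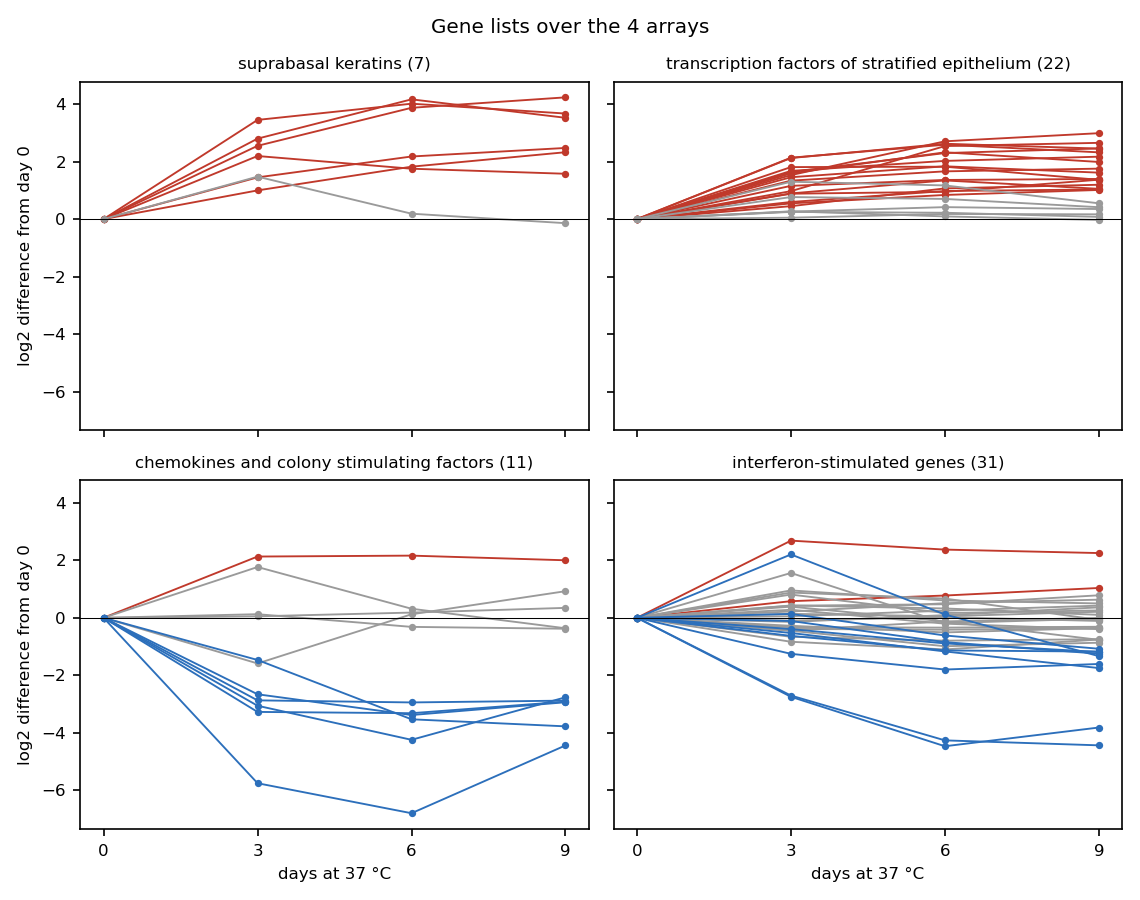
Log2 difference from day 0 (y axis) on the arrays of days 0, 3, 6 and 9 (x axis) for every kept member of 4 gene lists, 1 line per gene. Red lines are genes 2-fold or more higher on day 9 than on day 0, blue lines 2-fold or more lower and grey lines the rest; the numbers in brackets are the genes kept, and all 4 panels share the day 0 array as the baseline.

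Genes listed for the cornified envelope, the protein shell of surface cells, were higher as a group. The list is not of structural proteins alone, since it counts the exonuclease gene Trex2. Of 18 kept, 11 were higher and 0 lower (spike-in centred, 3 higher and 0 lower). The median was 1.28 above that of all genes. Loricrin, the main envelope protein of epidermis, read 10.38 on day 0 and 13.29 on day 9, 7.49-fold higher. Sprr3, a small proline-rich protein of oral and oesophageal epithelium, read 9.46 on day 0 and 12.14 on day 9, 6.42-fold higher, and Trex2, a keratinocyte exonuclease gene, read 8.78 on day 0 and 10.92 on day 9, 4.41-fold higher. Dmkn, the dermokine gene, read 12.18 on day 0 and 13.69 on day 9, 2.85-fold higher. The scaffold genes Evpl (envoplakin) and Scel (sciellin) were 2.28-fold and 2.52-fold higher, and Cnfn, the cornifelin gene, was just past the threshold at 1.005.

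Enzymes that make the lipids of the epithelial barrier were more often higher than lower on the deposited scale, and not with spike-in centring. Of 20 ceramide and barrier lipid genes 8 were higher and 1 lower (spike-in centred, 3 higher and 4 lower; median 0.93 relative to all genes). Smpd3, a neutral sphingomyelinase gene, read 6.24 on day 0 and 8.64 on day 9, 5.30-fold higher. Aloxe3, a lipoxygenase of the barrier lipid pathway, read 7.06 on day 0 and 8.97 on day 9, and Degs2, which hydroxylates ceramides, 5.53 on day 0 and 7.44 on day 9, 3.76-fold and 3.75-fold higher. Elovl1, an elongase of very long fatty acids, read 10.19 on day 0 and 11.74 on day 9, 2.93-fold higher. The lower member was Cers6, a ceramide synthase gene (7.81 on day 0 and 6.71 on day 9). Among 18 genes of triglyceride storage 5 were higher and 0 lower (spike-in centred, 1 higher and 3 lower). Dgat2, which catalyses the last step of triglyceride synthesis, read 8.43 on day 0 and 10.61 on day 9, 4.54-fold higher and the largest of that list. Abhd5, the co-activator of lipid droplet lipolysis, read 8.83 on day 0 and 10.04 on day 9. In the fatty acid synthesis list 1 gene was higher and 4 of 16 were lower (spike-in centred, 0 higher and 7 lower), among them the desaturase genes Scd (-1.14) and Fads3 (-1.37), and Fads1, at least 2.07-fold. None of 21 cholesterol synthesis genes differed by 2-fold (spike-in centred, 0 higher and 7 lower), the lowest being Dhcr7 at -0.70, and around them the exporter Abcg1 was lower and Apoe, the apolipoprotein E gene, read 5.16 on day 0 and 7.02 on day 9, 3.63-fold higher.

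Retinoid genes and enzymes of foreign compounds held some of the largest differences. Of 16 retinoid genes 7 were higher and 1 lower (spike-in centred, 5 higher and 5 lower). Beside Aldh1a1 and Cyp2s1, Rdh12, a retinal reductase gene, read 7.22 on day 0 and 9.61 on day 9, 5.25-fold higher, and Rbp2, a cellular retinol-binding protein gene, 9.32 on day 0 and 11.10 on day 9, 3.44-fold higher. The retinol dehydrogenase genes Dhrs9 and Rdh11 were 3.35-fold and 2.77-fold higher, and Rarg, the retinoic acid receptor of epidermis, read 6.21 on day 0 and 7.42 on day 9. Dhrs4, a carbonyl reductase gene, was the lower member (6.62 on day 0 and 4.96 on day 9). Among 13 cytochrome P450, glucuronosyltransferase and sulfotransferase genes 4 were higher and 0 lower (spike-in centred, 3 higher and 1 lower). They include Sult2b1, the cholesterol sulfotransferase of epidermis, at 8.84 on day 0 and 11.38 on day 9, and Cyp2j3, an arachidonic acid epoxygenase gene, at 5.05 on day 0 and 6.88 on day 9. In the list of NRF2 targets 2 of 28 were higher and 2 lower (spike-in centred, 0 higher and 6 lower). Hmox1, the heme oxygenase gene, read 10.84 on day 0 and 12.003 on day 9, while the thioredoxin reductase gene Txnrd1 read 9.07 on day 0 and 7.97 on day 9 (-0.80 in its other probe set). Gpx1, the main cytosolic glutathione peroxidase gene, was 3.12-fold lower (12.34 on day 0 and 10.70 on day 9), and Nox1 and Duox2, which encode superoxide- and peroxide-producing oxidases, were 2.65-fold and 2.17-fold higher.

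Some kallikrein, serpin and surface protease genes were higher, and no gene of the metalloproteinase list was. Of 27 genes in the plasminogen, serpin and kallikrein list, 10 were higher and 2 lower (spike-in centred, 7 higher and 5 lower; median 0.53 relative to all genes). Klk10 and Klk6, kallikrein genes, read 10.67 and 11.20 on day 0 and 13.14 and 13.11 on day 9. Prss8, which encodes the barrier protease prostasin, read 7.55 on day 0 and 9.61 on day 9, 4.15-fold higher, and its inhibitor gene Spint1 9.40 on day 0 and 10.77 on day 9, 2.59-fold higher. Serpinb11 and Serpinb12, intracellular serpins, were 6.10-fold and 3.04-fold higher, and Plat, the tissue plasminogen activator gene, 4.10-fold. Serpine2, the protease nexin-1 gene, read 10.88 on day 0 and 8.68 on day 9, 4.59-fold lower. In the metalloproteinase list 0 of 13 were higher and 4 lower (spike-in centred, 0 higher and 5 lower), although the list median was 0.45 above that of all genes. Besides Mmp3 these were Timp1, a metalloproteinase inhibitor gene (9.62 on day 0 and 7.66 on day 9), the membrane inhibitor gene Reck (6.59 on day 0 and 5.34 on day 9) and the collagenase gene Mmp13 (6.89 on day 0 and 5.82 on day 9). Of 6 antimicrobial genes kept, 4 were higher (spike-in centred, 2 higher and 1 lower), among them Defb4, a beta-defensin gene, at 8.93 on day 0 and 11.22 on day 9, 4.88-fold higher.

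Genes of cell-cell junctions were higher more often than lower on the deposited scale and lower more often with spike-in centring, and genes of the contact with the matrix were more often lower on both. Of 12 desmosome genes 4 were higher and 1 lower (spike-in centred, 1 higher and 3 lower). Cdsn, the corneodesmosin gene, was the largest, at 10.22 on day 0 and 12.36 on day 9, 4.40-fold higher. The desmosomal cadherin genes Dsg1 and Dsc2 were 2.61-fold and 2.57-fold higher, and Pkp2, the plakophilin of simple epithelia and heart, read 7.04 on day 0 and 5.18 on day 9, 3.63-fold lower. In the tight and adherens junction list 5 of 28 were higher and 1 lower (spike-in centred, 1 higher and 4 lower). Nectin4, an immunoglobulin-like adhesion gene, read 8.13 on day 0 and 9.83 on day 9, 3.25-fold higher, and its relative Nectin3 read 9.02 on day 0 and 7.995 on day 9, lower. Cldn1, the main claudin of epidermis, read 10.17 on day 0 and 11.51 on day 9, but its other probe sets were higher by 0.44 and 0.64. Gjb2, the connexin 26 gene, read 7.83 on day 0 and 9.08 on day 9, 2.39-fold higher, the 1 called gene of 5 connexin and pannexin genes (spike-in centred, 0 higher and 3 lower).

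No member of the basement membrane list was higher, and 6 of 19 were lower (spike-in centred, 0 higher and 12 lower), with a median -0.32 relative to all genes. Lama3 and Lamb3 encode chains of laminin-332, to which basal cells anchor. Lama3 read 10.03 on day 0 and 8.14 on day 9, 3.69-fold lower, and Lamb3 12.16 on day 0 and 10.70 on day 9, 2.76-fold lower. The laminin chains Lama5 and Lamb1, the nidogen gene Nid2 and the agrin gene Agrn were 2.40-fold, 2.38-fold, 2.74-fold and 2.23-fold lower. Among 16 integrin and integrin adaptor genes 1 was higher and 3 lower (spike-in centred, 0 higher and 10 lower). Itgb6, the integrin chain of wound epithelium that activates latent TGF-beta, read 9.66 on day 0 and 7.74 on day 9, 3.80-fold lower, and Fermt2, the kindlin-2 gene, 8.39 on day 0 and 6.52 on day 9, 3.64-fold lower. In the list of matrix glycoproteins 8 of 24 were lower and 0 higher (spike-in centred, 0 higher and 15 lower; median -0.49 relative to all genes). Fn1, the fibronectin gene, read 11.92 on day 0 and 9.66 on day 9, 4.78-fold lower, and Ltbp1, the latent TGF-beta binding protein gene, 10.03 on day 0 and 7.77 on day 9, 4.78-fold lower. Spp1, the osteopontin gene, and Ccn2, a matricellular gene, were 2.98-fold and 2.64-fold lower. Col5a1 and Col5a2 encode chains of collagen V. Col5a1 read 8.45 on day 0 and 7.18 on day 9 and Col5a2 6.45 on day 0 and 3.58 on day 9, the latter at least 3.71-fold lower.

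**Figure D4:**
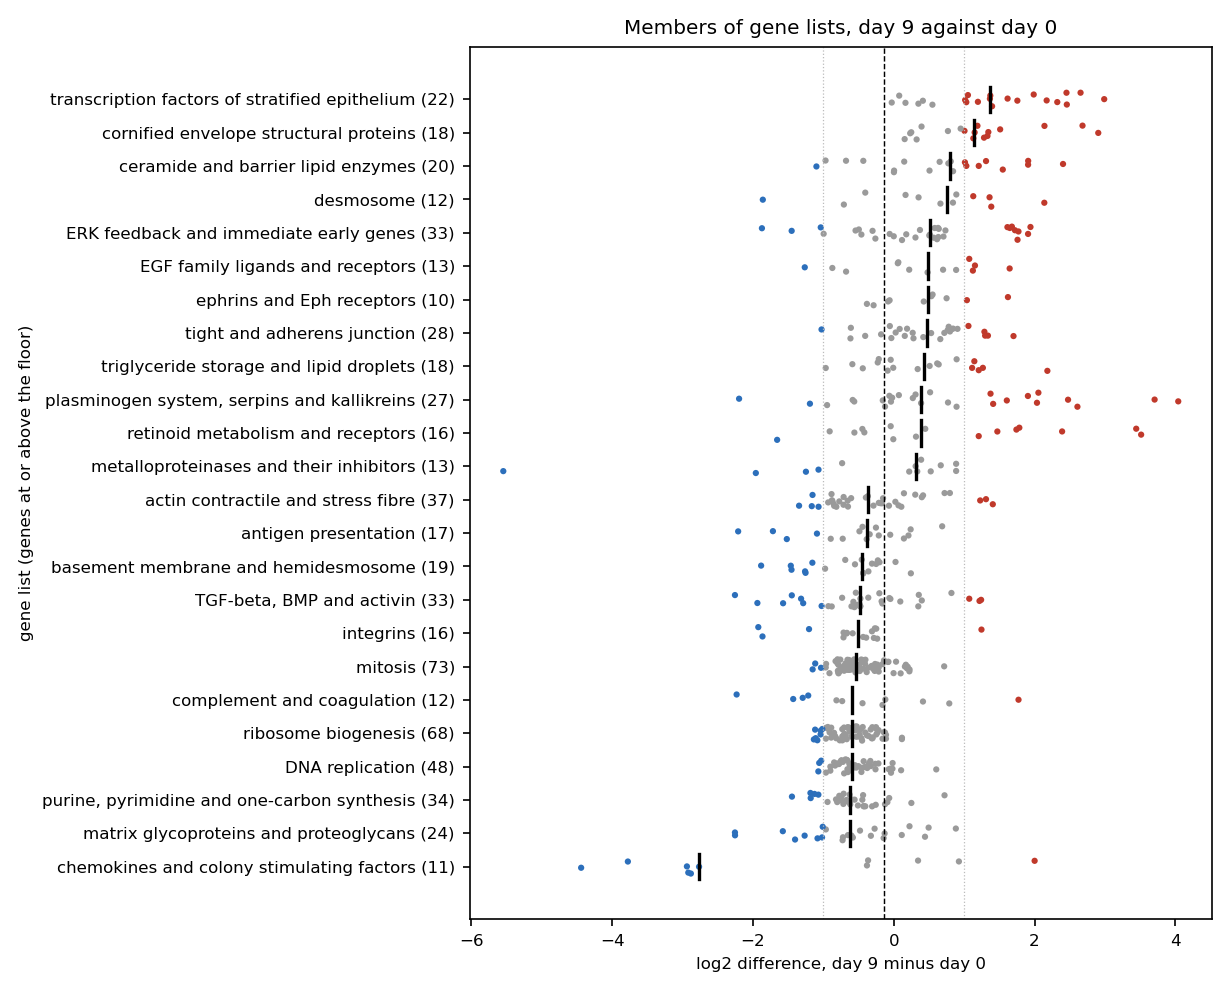
Log2 difference between day 9 and day 0 (x axis) of every kept member of 24 gene lists (y axis, with the number of genes), namely the 12 with the highest and the 12 with the lowest median among lists of 10 or more genes other than reference genes. Red points are 2-fold or more higher, blue points 2-fold or more lower; black bars are list medians and the dashed line is the median gene at -0.14.

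Cytoskeletal genes differed in both directions. Of 37 actin and stress fibre genes 3 were higher and 4 lower (spike-in centred, 0 higher and 19 lower). Palld, the palladin gene of stress fibres, read 9.01 on day 0 and 7.67 on day 9, 2.54-fold lower, and Actn1, the alpha-actinin gene of focal contacts, 12.65 on day 0 and 11.50 on day 9, 2.23-fold lower. Pdlim2 and Ablim1, actin-binding LIM protein genes, were 2.65-fold and 2.48-fold higher. In the caveolae and endocytosis list 3 of 46 were higher and 4 lower (spike-in centred, 0 higher and 11 lower). The median of that list was 0.42 above that of all genes. Among its lower members, Cavin3 read 11.75 on day 0 and 9.61 on day 9, 4.42-fold lower. Cav1, the caveolin-1 gene, read 12.56 on day 0 and 11.27 on day 9, 2.45-fold lower. Epn3, a higher member, read 9.39 on day 0 and 10.71 on day 9. Of 26 microtubule genes 4 were higher and 1 lower (spike-in centred, 2 higher and 5 lower), with Map2, a neuronal microtubule protein gene, at 8.51 on day 0 and 10.33 on day 9, 3.53-fold higher, and Clip1 3.23-fold higher. Lmnb1 and Lmnb2, the lamin B genes, read 11.43 and 8.07 on day 0 and 10.53 and 6.94 on day 9, of which Lmnb2 was called, and the other probe set of Lmnb1 differed by -1.48.

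Among signalling genes, the list of ERK feedback and immediate early genes had members in both directions. Of 33 genes 8 were higher and 3 lower (spike-in centred, 7 higher and 7 lower; median 0.65 relative to all genes). Zfp36, which encodes a protein that destabilises cytokine mRNAs, read 7.29 on day 0 and 9.23 on day 9, 3.84-fold higher. The AP-1 genes Fosl2, Junb and Fos read 6.89, 8.66 and 6.45 on day 0 and 8.80, 10.43 and 8.06 on day 9, and the mean over the probe sets of Fos was higher by 1.001. Dusp1 and Dusp5, phosphatases of MAP kinases, were 3.38-fold and 3.298-fold higher. On the other side Spry2, a feedback inhibitor of receptor tyrosine kinases, read 9.48 on day 0 and 7.60 on day 9, 3.66-fold lower, and the ERK target gene Etv5 7.54 on day 0 and 6.09 on day 9, 2.73-fold lower. In the EGF family 4 of 13 were higher and 1 lower (spike-in centred, 1 higher and 3 lower), in medium that held EGF on both days. Errfi1, the EGF receptor inhibitor MIG6, read 9.06 on day 0 and 10.71 on day 9, 3.13-fold higher, and the receptor gene Erbb2 7.84 on day 0 and 8.96 on day 9. The ligand genes differed among themselves, with Ereg and Tgfa 2.22-fold and 2.10-fold higher and Areg 2.40-fold lower.

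Genes of the TGF-beta family were lower more often than higher. In the TGF-beta, BMP and activin list 3 of 33 were higher and 7 lower (spike-in centred, 0 higher and 19 lower; median -0.34 relative to all genes). Id2 and Id3, inhibitors of differentiation that BMPs induce, read 8.24 and 10.83 on day 0 and 6.30 and 9.52 on day 9, 3.83-fold and 2.49-fold lower. Smad3, the transducer of TGF-beta, read 9.25 on day 0 and 7.97 on day 9, 2.44-fold lower, and the BMP antagonist gene Nog 5.05 on day 0 and 6.29 on day 9, 2.36-fold higher. The other higher members were the BMP receptor gene Bmpr2 (1.22) and Tgfa, whose product binds the EGF receptor and not those of TGF-beta. Igfbp2 and Igfbp7, binding proteins of insulin-like growth factors, went in opposite directions. Igfbp2 read 6.99, 7.90, 9.76 and 9.94 on the 4 arrays, 7.70-fold higher on day 9, and Igfbp7 9.32, 9.70, 8.21 and 7.31, 4.04-fold lower. Among growth factors and their receptors 3 of 16 genes were higher and 3 lower (spike-in centred, 2 higher and 6 lower). Bdnf read 4.27 on day 0 and 6.50 on day 9 and Fgfr3, a receptor of suprabasal keratinocytes, 4.76 on day 0 and 6.81 on day 9, 4.70-fold and 4.13-fold higher. Kitlg, the stem cell factor gene, read 7.90 on day 0 and 6.06 on day 9, 3.60-fold lower, and the semaphorin receptor gene Nrp2 was 3.03-fold lower, but -0.92 on the log2 scale with the mean over its probe sets, short of 2-fold. In the Wnt list 3 of 32 genes were higher and 2 lower (spike-in centred, 2 higher and 10 lower). Lrp6, a Wnt co-receptor gene, read 6.41 on day 0 and 8.27 on day 9, 3.62-fold higher, and Wnt4 10.08 on day 0 and 11.57 on day 9, 2.80-fold higher. The R-spondin receptor gene Lgr4 read 6.43 on day 0 and 4.61 on day 9, 3.51-fold lower, against the higher Lgr5. Of 17 Notch pathway genes 0 were higher and 1, Hes6, was lower (-1.10) (spike-in centred, 0 higher and 3 lower). Of 10 ephrin and Eph genes 2 were higher (spike-in centred, 0 higher and 1 lower), led by Ephb6 at 7.27 on day 0 and 8.89 on day 9.

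Calcium-binding proteins held both ends. In the list of protein kinase C, calcium signalling and annexin genes 4 of 38 were higher and 3 lower (spike-in centred, 4 higher and 14 lower). Calml3, a calmodulin-like protein of differentiated epithelium, read 6.34, 9.56, 10.23 and 9.25 on the 4 arrays, 7.48-fold higher, and Prkch, the protein kinase C isoform of differentiating keratinocytes, 7.98, 9.37, 9.79 and 10.33, 5.09-fold higher. Camkk2, a calmodulin-dependent kinase gene, read 7.68 on day 0 and 5.69 on day 9, 3.97-fold lower (-1.32 on the log2 scale with the mean over its probe sets), and Anxa3, an annexin gene, 10.49 on day 0 and 8.78 on day 9, 3.28-fold lower. Among 11 S100 genes 1, S100a16, was higher (1.10) and 1, S100a4, was lower (-1.18), and 0 and 2 with spike-in centring.

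Chemokine and colony stimulating factor genes stood mostly lower on day 9. Of 11 kept, 6 were lower and 1 was higher (spike-in centred, 1 higher and 7 lower), with a median -2.63 relative to all genes, or -1.75 with values under the control level set to it. Cxcl1, a neutrophil chemokine gene, read 10.52, 7.45, 6.27 and 7.75 on days 0, 3, 6 and 9, 6.81-fold lower on day 9 than on day 0 but above its day 6 value. Ccl2 showed the same order of days 6 and 9. Ccl27, a chemokine of keratinocytes that attracts skin-homing T cells, read 8.29, 5.63, 4.91 and 5.35, 7.67-fold lower. The exception was Ccl6, a chemokine gene of rodents, at 9.41, 11.54, 11.57 and 11.41, 4.003-fold higher and level from day 3 on. Cxcl3, another neutrophil chemokine gene, read 8.58, 6.99, 8.70 and 9.50, dropping on day 3 and above its day 0 value on day 9 by 0.93, short of 2-fold. The chemokines Cxcl1 and Cxcl3 thus lay on different sides of their day 0 levels.

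Interferon-stimulated genes were lower more often than higher, and their largest differences were those of the guanylate-binding proteins. Of 31 genes 9 were lower and 2 higher (spike-in centred, 1 higher and 15 lower), and the median was -0.22 relative to all genes. Gbp4, next to Gbp2 on chromosome 2, read 7.73, 4.98, 3.26 and 3.92, at least 9.05-fold lower. Irf1, a transcription factor that interferons induce, read 7.83, 6.58, 6.03 and 6.23, 3.05-fold lower, and Dtx3l, a ubiquitin ligase gene, 8.59 on day 0 and 6.84 on day 9, 3.36-fold lower. Ifitm2 and Ifitm3, antiviral membrane protein genes, were 2.38-fold and 2.28-fold lower. Against these, Mx2, an antiviral GTPase gene, read 7.90, 10.59, 10.27 and 10.15, 4.76-fold higher, and 1.20 higher on the log2 scale with the mean over its probe sets. In antigen presentation 4 of 17 genes were lower and 0 higher (spike-in centred, 0 higher and 9 lower). The immunoproteasome genes Psmb9 and Psmb8 read 8.24 and 8.27 on day 0 and 6.02 and 6.75 on day 9, 4.63-fold and 2.87-fold lower, and Erap1, the peptide-trimming protease gene, 9.90 on day 0 and 8.18 on day 9, 3.29-fold lower. Among all 43 proteasome genes (spike-in centred, 0 higher and 10 lower), the 3 lower ones were Psmb9, Psmb8 and the activator gene Psme2.

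The other immune lists had calls in both directions. Among NF-kappaB pathway genes 2 of 37 were higher and 4 lower (spike-in centred, 1 higher and 9 lower). Tnfaip3, the feedback inhibitor A20, read 8.74 on day 0 and 6.88 on day 9, 3.64-fold lower, Ptgs2, the cyclooxygenase-2 gene, 12.06 on day 0 and 10.34 on day 9, 3.299-fold lower, and Bcl3, a nuclear inhibitor-of-kappaB protein gene, 6.74 on day 0 and 8.61 on day 9, 3.67-fold higher (1.21 on the log2 scale with the mean over its probe sets). In complement and coagulation 4 of 12 were lower and 1 was higher (spike-in centred, 1 higher and 7 lower). The complement proteases C1r and C1s were 2.45-fold and 2.32-fold lower, F2r, the thrombin receptor gene, 4.70-fold lower, and Thbd, the thrombomodulin gene, 3.42-fold higher. Of 20 interleukin and receptor genes 3 were higher (spike-in centred, 0 higher and 4 lower), among them Il36rn, the IL-36 receptor antagonist gene (9.35 on day 0 and 10.59 on day 9), and Tslp, an epithelial cytokine gene, was lower (6.06 on day 0 and 5.02 on day 9).

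The lists of DNA replication, mitosis, ribosome biogenesis, nucleotide synthesis and DNA repair had medians below that of all genes and no gene that was higher. In DNA replication 3 of 48 genes were lower (spike-in centred, 0 higher and 35 lower), with a median -0.46 relative to all genes. The shares lower, 6.25% here and 4.11% of 73 mitosis genes, were at or below the 6.25% of all genes kept. With spike-in centring that order turned round, since 33.1% of all genes kept were then lower, against 35 of the 48 replication genes and 49 of the 73 mitosis genes. The mitosis list had a median of -0.40 relative to all genes. Dut, the dUTPase gene, read 11.19 on day 0 and 10.11 on day 9, and Ncapd2, a condensin gene, 8.02 on day 0 and 6.87 on day 9. The ribosome biogenesis list had 7 of 68 genes lower (spike-in centred, 0 higher and 50 lower; median -0.46). Its share lower, 10.3%, was above that of all genes kept on the deposited scale too. Polr1a, the large subunit of RNA polymerase I, read 7.78 on day 0 and 6.64 on day 9, 2.20-fold lower. In nucleotide and one-carbon synthesis 5 of 34 were lower (spike-in centred, 0 higher and 27 lower) and the median was -0.48, with Ppat, the entry enzyme of purine synthesis, at 8.09 on day 0 and 6.91 on day 9 and Mthfd1l, a mitochondrial folate enzyme gene, at 8.76 on day 0 and 7.58 on day 9. Phgdh, the entry enzyme of serine synthesis, read 9.40 on day 0 and 7.98 on day 9, 2.68-fold lower. Of 57 DNA repair genes 5 were lower (spike-in centred, 0 higher and 25 lower), among them Xrcc2 at 6.31 on day 0 and 4.90 on day 9 and Parp1 at 10.05 on day 0 and 8.70 on day 9. Among cell cycle regulators 3 of 45 genes were higher and 2 lower (spike-in centred, 1 higher and 15 lower). Mxd1, an antagonist of MYC, read 9.22 on day 0 and 11.22 on day 9, 4.01-fold higher, and Cdkn1c, the gene of the kinase inhibitor p57, 7.22 on day 0 and 8.79 on day 9, 2.96-fold higher. Cdkn2a, the locus of p16 and p19ARF, read 11.59 on day 0 and 10.45 on day 9, 2.20-fold lower. Of 30 apoptosis genes 3 were higher and 3 lower (spike-in centred, 0 higher and 9 lower). Bid and Pycard, a death agonist and an inflammasome adaptor, were 3.12-fold and 2.91-fold lower and Xiap, a caspase inhibitor, 2.78-fold higher.

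The machinery of energy metabolism and protein synthesis held few called genes on the deposited scale. No member differed by 2-fold among 71 respiratory chain, 22 citric acid cycle, 73 mitochondrial ribosomal protein, 44 cytosolic ribosomal protein, 22 aminoacyl-tRNA synthetase, 56 Golgi and traffic and 4 Hedgehog genes. Their medians lay between -0.18 and 0.17 relative to all genes. With spike-in centring, the numbers lower in these lists were 17, 10, 33, 4, 10, 3 and 1 in the same order, and none was higher. In glycolysis 1 of 20 was higher (spike-in centred, 0 higher and 4 lower), the phosphofructokinase-2 gene Pfkfb2 at 6.17 on day 0 and 7.33 on day 9, with 0.02 and 0.21 in its other probe sets. The lysosomal list had 3 of 53 higher and 3 lower (spike-in centred, 0 higher and 9 lower), with Ctsd, the cathepsin D gene, at 11.32 on day 0 and 12.83 on day 9, 2.86-fold higher. In autophagy 4 of 38 were higher and 0 lower (spike-in centred, 1 higher and 6 lower), led by Depp1, a FoxO target gene, at 7.18 on day 0 and 9.01 on day 9. Of 30 heat shock and cold-inducible genes 1 was higher and 2 were lower (spike-in centred, 1 higher and 10 lower). Cryab, the small heat shock protein alpha-B crystallin, read 9.41, 12.34, 12.33 and 12.10 on the 4 arrays, 6.43-fold higher. Cirbp, the cold-inducible RNA-binding protein gene, read 8.83, 7.75, 7.49 and 7.46, 2.58-fold lower. The day 0 cells had spent 0 days at 37 °C. With 1 array per day, temperature cannot be told apart from day or array, and its part in this difference was not tested.

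Transporters, channels and other regulators added single genes. Scnn1g, a subunit of the epithelial sodium channel, read 5.91, 7.81, 7.99 and 8.50, 6.01-fold higher. Aqp3 and Aqp9, aquaglyceroporin genes, read 10.87 and 8.56 on day 0 and 12.31 and 9.95 on day 9, and Fxyd4, a regulator of the sodium pump, 7.52 on day 0 and 9.37 on day 9, 3.61-fold higher. Slc12a2, the sodium-potassium-chloride cotransporter gene, read 12.37 on day 0 and 10.80 on day 9, 2.97-fold lower, and Kcnn4, a calcium-activated potassium channel gene, 8.68 on day 0 and 6.97 on day 9, 3.28-fold lower. Tfrc, the transferrin receptor gene and a member of the reference gene list, read 12.22 on day 0 and 10.81 on day 9, 2.66-fold lower. Rora, a nuclear receptor of the clock, read 4.92 on day 0 and 7.17 on day 9, 4.78-fold higher, and the clock genes Npas2 and Bhlhe41 were 3.18-fold and 2.80-fold lower. Among 65 histone and chromatin genes 6 were higher and 2 lower (spike-in centred, 3 higher and 13 lower), with Cbx2, a Polycomb gene, at 5.39 on day 0 and 7.55 on day 9 and Kdm6b, an H3K27 demethylase gene, at 6.62 on day 0 and 8.31 on day 9. Cblc, a ubiquitin ligase of receptor tyrosine kinases, read 6.51 on day 0 and 8.60 on day 9, 4.27-fold higher, and Tspan15, a partner of the protease ADAM10, 6.91 on day 0 and 8.99 on day 9, 4.21-fold higher.

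Some called genes were neighbours. In the RefSeq gene order of GRCr8, 7 runs of 3 or more consecutive kept genes differed by 2-fold or more in 1 direction. How many such runs a random order of the genes would give was not tested. The higher runs included Vsig10l, Klk10, Klk8 and Klk6 on chromosome 1 and the keratins Krt10, Krt12, Krt20 and Krt23 on chromosome 10. Vsig10l, beside the kallikreins, read 8.36, 10.41, 11.09 and 11.12, 6.77-fold higher, and 1.40 higher on the log2 scale in its other probe set. The lower runs were Gbp4, Gbp2 and Kyat3 on chromosome 2, Epb41l2, Akap7 and Arg1 and, apart from them, Tpd52l1, Hddc2 and Ncoa7 on chromosome 1, and Zfp326, Lrrc8d and Lrrc8c on chromosome 14. Kyat3, an aminotransferase gene, read 7.14, 6.19, 4.72 and 5.27, 3.64-fold lower, and Akap7, a kinase anchor gene, 6.96, 6.61, 5.50 and 5.07, 3.71-fold lower. Lrrc8d and Lrrc8c, subunits of a volume-regulated anion channel, were 3.68-fold and 4.01-fold lower. Hddc2 was 2.40-fold lower in the probe set used and differed by 0.01 in its other one. Genes with no kept probe set are skipped in this order, so runs are of measured genes, and these genes were named after their values were seen.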

How the data were processed

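Total RNA of 4 cultures was hybridised to rat 3' expression arrays, 1 per day. The authors deposited log2 values per probe set, for which the submitters' processing notes name RMA; which software ran it, and how, is not given in the sources used here, and the log base was read from the range of the values (1.55 to 14.2). Of 31099 probe sets, 57 were controls, 20832 had 1 gene symbol, 436 several and 9831 none; 20764 matched a RefSeq gene by Entrez identifier and no symbol changed. Only those with 1 symbol were given a gene name. The day 0 column was subtracted from the day 9 column, with no further normalization. Calls were by size (2-fold), since 1 array per day allows no test. A simulation of the rule planted only differences above the threshold, with an assumed spread. It therefore cannot show how many calls on these arrays are wrong. The named genes are the 20 largest differences in each direction (values under the control level set to it), up to 4 members with the largest difference in each of 92 lists, and Krt5, Krt13, Krt14, Tp63, Cdh1, Vim, Mki67, Actb and Gapdh, of which Actb had no kept probe set; a gene named beyond these was chosen after its values were seen. Members, lists, markers and motifs were chosen with earlier results of these data known. The alternatives were the floor on low values, the probe set of a gene, the scaling of the arrays, the control level and the size threshold. Python 3.11.15, pandas 2.3.3, numpy 2.4.6, scipy 1.17.1 and matplotlib 3.10.9 were used. The number of arrays, and not a read depth, limits the precision.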

Additional observations from a re-analysis of the deposited data

Results flagged for a closer look

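Probe sets without a gene symbol were used in no comparison above. Of 2375 such probe sets that reached 6 on any array, 161 (6.78%) were 2-fold or more higher on day 9 than on day 0 and 241 (10.1%) were lower. The shares among the genes kept were 5.57% and 6.25%. The largest differences among them, as measured and not as bounds, were 4.87 (1391331_at) and 4.37 (1380962_at) on the higher side and -3.76 (1391552_at) and -3.49 (1385925_at) on the lower side. On day 0 1391331_at and 1380962_at read 2.32 and 4.02, under the control level of 4.19. On day 9 1385925_at read 3.08, under that of 4.56. They are unnamed here.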

How the results depend on the processing

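Of 54 recomputed counts and shares, 32 stayed close to the values reported. A count within 1.5-fold was taken as close, so the 550 lower genes becoming 378 with median centring or 418 with probe set means were close. A share was close from 49.8% to 56.0%, a binomial interval over genes, which are not replicates. Counts of genes measured on 1 day only cannot change with centring, and these are among the 32. The 490 higher genes became 174 with spike-in centring, 1058 at 1.5-fold and 185 at 3-fold. The 550 lower genes became 327 with a floor of 8, 364 with centring on reference genes, 2911 with spike-in centring, 1728 at 1.5-fold and 130 at 3-fold. The share lower, 52.9%, became 46.7% with a floor of 8, 48.4% with the mean over probe sets, 37.7% with median centring, 36.2% with reference genes, 94.4% with spike-ins, 46.6% after a further quantile normalization, 62.0% at 1.5-fold and 41.3% at 3-fold. The 8 genes measured on day 9 only became 66 with no floor, 21 with a floor of 5 and 0 with a floor of 8, and the 15 on day 0 only became 550, 75 and 1. The control level was 4.19 on day 0 and 4.56 on day 9. With no floor, a gene between these levels on both arrays counts as measured on day 0 only. List medians are relative to all genes, so centring on the median gene, the reference genes or the spike-ins leaves all 92 as they are. These fixed values are included in the 918 list medians below. A sign change of a median close to 0 was not counted as a reversal. Of 918 list medians 3 reversed: connexins and pannexins (-0.42 to 0.21 with no floor), TNF ligands and receptors (-0.37 to 0.14 with a floor of 8) and potassium channels (0.37 to -0.39 with a floor of 8). The cause was not tested, other than that a floor changes which genes are counted and a threshold which sizes are called. Of 1051 recomputed named gene values 782 stayed close and 269 moved; 8 of the 91 named genes under 2-fold apart, Krt14, Tp63 and Cdh1 among them, took the opposite sign with spike-in centring. No paired analysis was possible because each day has 1 array, and for the same reason no array could be left out.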
